A study of Mus musculus with 4 samples.

Results

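The genes described here encode proinflammatory and regulatory cytokines that macrophages are known to make: *Tnf*, *Il1a*, *Il1b*, *Il1rn*, *Il6*, *Il10*, *Tgfb1*, *Csf1*, *Osm* and *Lif*. They were taken by name, and 9 of the 10 had a row among the 15298 genes with values. *Il10*, which encodes the main anti-inflammatory cytokine of macrophages, was not analysed here. The RNA came from peritoneal macrophages, sorted as CD11b+ F4/80+ Ly6G- cells of female BALB/c mice aged 6 weeks. MCS (microcurrent stimulation) was given under isoflurane anesthesia at ZT2 as a bidirectional pulsed current of 300 µA and 400 Hz for 15 min. Control mice were handled alike and received no current. Zeitgeber time (ZT) counts hours from lights on. The 4 libraries were control at ZT2, control at ZT14, MCS at ZT2, taken immediately after the current ended, and MCS at ZT14, taken 12 h later. The labels name no altered allele. Each condition had 1 library. How many mice contributed to a library was not given in the sources used.

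Cytokines of this kind fall into a few families. TNF and IL-1 are alarm signals that act through NF-kB, and the IL-1 receptor antagonist blocks the IL-1 receptor without activating it. IL-6, oncostatin M and LIF share the receptor subunit gp130 and act through STAT3, TGF-beta is made as a latent protein that must be released before it acts, and CSF1 keeps macrophages alive. In resting macrophages the mRNAs of several of these cytokines are scarce and short-lived, in part through AU-rich elements in their 3′ UTRs, and many rise within minutes to hours of a stimulus.

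Every value was a whole number of reads times a factor of its library, so the depth behind it is known. The libraries held between 8365590 and 9953243 reads, and 1 read equaled between 0.102 and 0.116 CPM (read counts scaled by the authors to library size). A floor of 3 reads was used, which is 0.307 to 0.348 CPM. For a count of 0 the upper limit of the 95% interval was 0.377 to 0.428 CPM. All 95% intervals below are exact Poisson intervals of a level or exact binomial (Clopper-Pearson) intervals of a ratio. Ratios are on the log2 scale after adding 0.1 CPM to each value. The intervals cover counting error only, and with 1 library per condition no difference has a replicate check. All 8 macrophage marker genes were present, with sums between 24956 and 27436 CPM. In bulk RNA, fewer cells of a type and less RNA per cell cannot be told apart.

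Only *Lif* lay below 1 CPM in all 4 libraries, and *Il6* did so in MCS at ZT2 alone. The other 7 genes with values were at 1 CPM or more throughout. Per kilobase of exon, the mean level of *Tgfb1* was 98.3 CPM, higher than that of 97.1% of the genes in the table, while no other member reached 5 CPM per kilobase. *Il1a* followed with 4.83, *Osm* with 3.53, *Csf1* with 2.90, *Il1b* with 2.75, *Il1rn* with 2.62 and *Tnf* with 2.08 CPM per kilobase. *Il6* stood at 0.453 and *Lif* at 0.0691 CPM per kilobase, the latter above only 4.97% of the genes. From *Il1a* down to *Tnf* the order of these means was not the order within each library: at ZT2 after MCS, *Il1b* led this group with 5.22 CPM per kilobase and *Il1a* had 4.11. The proinflammatory alarm cytokines were therefore present as sparse mRNAs in every library, and the regulatory *Tgfb1* as an abundant one.

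**Figure D1:**
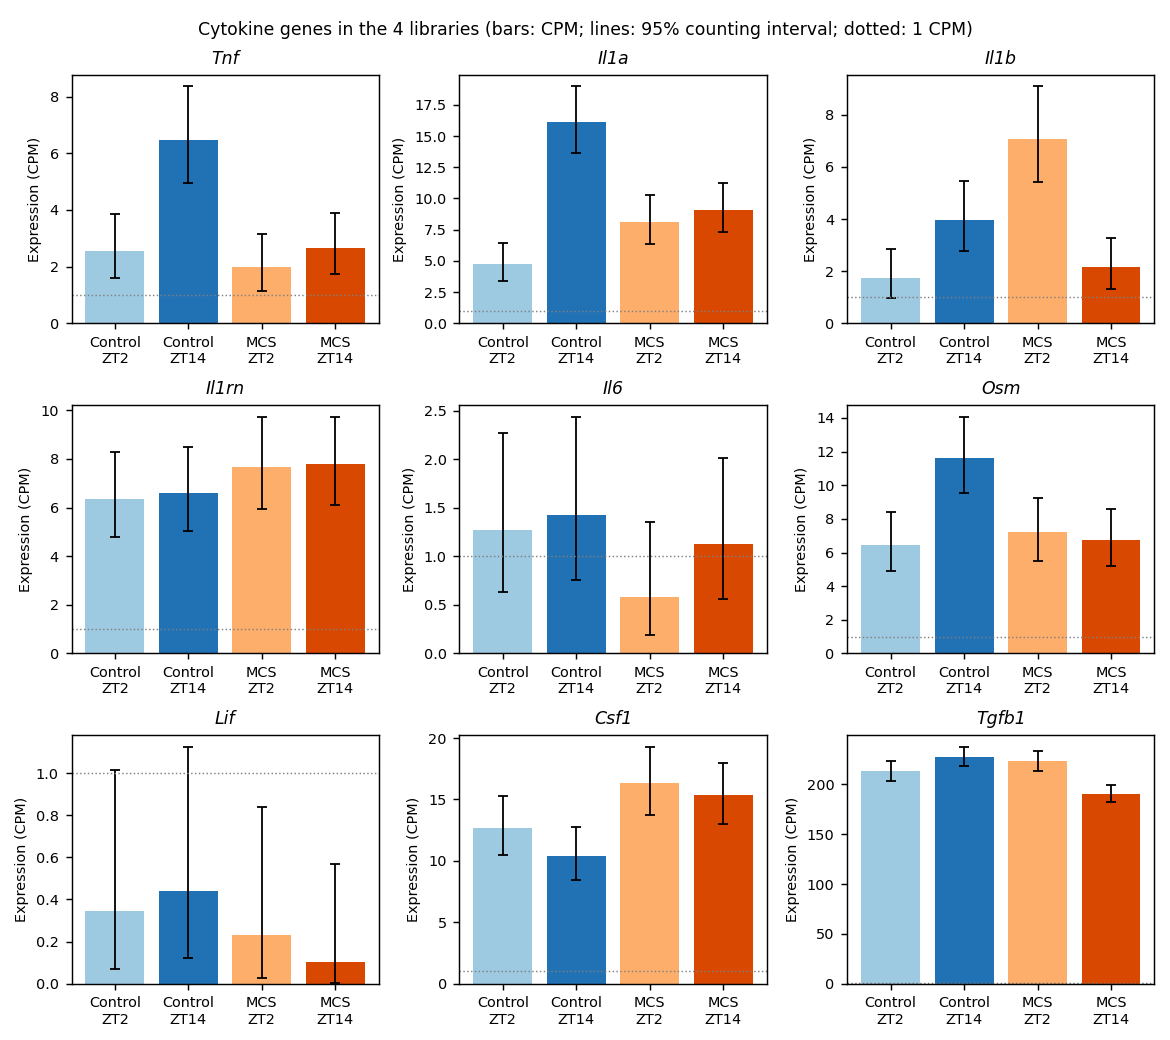
Expression of the 9 cytokine genes in CPM (vertical axes, each starting at 0) in the 4 libraries, with bars for the values, lines for 95% counting intervals and a dotted line at 1 CPM. The control library at ZT14 has the tallest bar for *Tnf*, *Il1a*, *Osm* and *Tgfb1*, and MCS at ZT2 has it for *Il1b*.

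*Tnf* encodes tumor necrosis factor, which activates endothelium and leukocytes. The gene lies at chr17:35199381-35202007 (mm10, minus strand, 4 exons, ENSMUSG00000024401.14). It had 2.54 CPM in control at ZT2, 6.48 CPM in control at ZT14, 1.97 CPM with MCS at ZT2 and 2.66 CPM with MCS at ZT14, or 22, 59, 17 and 26 reads. The control library at ZT14 stood apart: its interval, from 4.93 to 8.36 CPM, overlapped none of the others, which together ran from 1.15 to 3.90 CPM. At ZT14 the log2 ratio of MCS to control was -1.25 (95% interval -2.01 to -0.60), and at ZT2 it was -0.35 (-1.37 to 0.61). Between times, ZT2 against ZT14, it was -1.32 (-2.13 to -0.62) in control and -0.41 (-1.40 to 0.51) with MCS. The low ratios at ZT14 and between times in control share 1 library, control at ZT14, here and in all that follows, so the pair of low values is not independent.

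The genes of IL-1 alpha and IL-1 beta lie in the same orientation on chromosome 2. *Il1a* (chr2:129299610-129309972, minus strand, 7 exons, ENSMUSG00000027399.1) encodes IL-1 alpha, a cytokine that is active as a precursor and is released from damaged cells. It had 4.74 CPM in control at ZT2, 16.1 CPM in control at ZT14, 8.12 CPM with MCS at ZT2 and 9.10 CPM with MCS at ZT14, from 41, 147, 70 and 89 reads. As for *Tnf*, the control library at ZT14 was the highest, and its interval of 13.6 to 19.0 CPM overlapped none of the others. The lowest was control at ZT2, with an upper limit of 6.42 CPM that reached just above the lower limit of MCS at ZT2, 6.33 CPM. For MCS against control the log2 ratio was 0.77 (0.20 to 1.37) at ZT2 and -0.82 (-1.22 to -0.44) at ZT14. ZT2 against ZT14 gave -1.75 (-2.31 to -1.26) in control, the largest ratio between times among the 9 genes in control mice, and -0.16 (-0.64 to 0.30) with MCS. The annotated gene *Gm14023* overlaps *Il1a* on the opposite strand. It had between 1.15 and 2.09 CPM, less than *Il1a* in every library, and no source used here says whether the counting used strand.

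*Il1b* (chr2:129364570-129371139, minus strand, 7 exons, ENSMUSG00000027398.13) encodes IL-1 beta, which inflammasomes release from its precursor. Its values were 1.73 CPM in control at ZT2, 3.95 CPM in control at ZT14, 7.08 CPM with MCS at ZT2 and 2.15 CPM with MCS at ZT14, from 15, 36, 61 and 21 reads. Here the highest library was MCS at ZT2, with an interval of 5.41 to 9.09 CPM that shared only its lowest edge with that of control at ZT14, 2.77 to 5.47 CPM. The spread from the lowest to the highest library, 4.08-fold, was wider than that of the other 7 genes with 1 CPM or more on average. The log2 ratio of MCS to control was 1.97 (1.20 to 2.95) at ZT2 and -0.85 (-1.73 to -0.066) at ZT14. ZT2 against ZT14 gave -1.15 (-2.17 to -0.29) in control and 1.68 (0.98 to 2.51) with MCS. *Il1b* was the only member whose ratios had opposite signs in both pairs of comparisons with all 4 intervals excluding no change. The annotated *Il1bos* overlaps *Il1b* on the opposite strand and was not analysed here.

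*Il1rn* (chr2:24336853-24351494, plus strand, 5 exons, ENSMUSG00000026981.15) encodes the IL-1 receptor antagonist, which opposes both IL-1 cytokines. It had 6.35, 6.59, 7.66 and 7.77 CPM in control at ZT2, control at ZT14, MCS at ZT2 and MCS at ZT14, from 55, 60, 66 and 76 reads. All 4 intervals overlapped, and the highest library was 1.22-fold above the lowest. The log2 ratio of MCS to control was 0.27 (-0.27 to 0.81) at ZT2 and 0.23 (-0.27 to 0.75) at ZT14, and at this depth the intervals leave room for a ratio of up to 0.81. The antagonist mRNA was more abundant than that of *Il1b* in control at ZT2, with 2.35 against 1.28 CPM per kilobase. The same held in MCS at ZT14, with 2.87 against 1.58 CPM per kilobase. It was less abundant in control at ZT14, with 2.44 against 2.92, and in MCS at ZT2, with 2.83 against 5.22 CPM per kilobase.

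*Tnf*, *Il1a* and *Il1b* shared a promoter feature that the choice of genes did not use, and their promoters are shown for that reason. Each holds TATAAA, the core of a TATA box, at -29, -32 and -31 bases from the start site, respectively. The letters TATAAA occurred on the plus strand in the promoters of 3 of the 8 members with a RefSeq entry and in 8.32% of all 32851 promoters, each covering 250 bases before and 50 bases after a start site. The 250 bases before the start site are given 5′ to 3′ on the strand of the gene, from RefSeq on GRCm38.p6, at chr17:35202008-35202257 for *Tnf*, chr2:129309973-129310222 for *Il1a* and chr2:129371140-129371389 for *Il1b*, all on the minus strand. Capitals mark TATAAA and, in *Il1a*, also the AP-1 motif TGACTCA.
Tnf: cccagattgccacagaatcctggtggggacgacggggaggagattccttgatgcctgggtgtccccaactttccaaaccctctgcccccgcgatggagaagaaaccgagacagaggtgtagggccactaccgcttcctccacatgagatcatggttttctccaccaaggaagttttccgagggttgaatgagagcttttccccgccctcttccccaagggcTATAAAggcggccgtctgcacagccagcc
Il1a: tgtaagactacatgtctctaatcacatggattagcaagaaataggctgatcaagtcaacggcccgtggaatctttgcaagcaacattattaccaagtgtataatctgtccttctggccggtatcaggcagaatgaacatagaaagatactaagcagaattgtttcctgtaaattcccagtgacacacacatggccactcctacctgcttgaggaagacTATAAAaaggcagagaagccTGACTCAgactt
Il1b: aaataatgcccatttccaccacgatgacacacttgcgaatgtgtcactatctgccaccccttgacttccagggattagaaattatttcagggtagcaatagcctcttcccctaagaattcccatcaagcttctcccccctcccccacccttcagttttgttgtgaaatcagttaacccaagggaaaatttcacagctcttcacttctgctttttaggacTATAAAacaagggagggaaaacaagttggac

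Other motifs were searched on both strands of the same promoters. The AP-1 motif TGANTCA, which Fos and Jun proteins bind, was found for 4 member genes, *Il1a*, *Il1rn*, *Il6* and *Lif*, against 7.81% of all promoters. An NF-kB motif of 10 bases was found for *Il6*, as GGGATTTTCC, for *Il1rn*, as GGGTTTTTCC, and for *Csf1*, as GGAAAGTCCC on the other strand, against 4.79% of all promoters. The letters of a cAMP response element, TGACGTCA, of an E-box, CACGTG, and of a D-box, TTATGNAA, were in none of the 10 member promoters, against 1.79%, 7.15% and 3.38% of all promoters. These are matches of letters within a short window and not binding sites. The promoter of *Osm* was not used here.

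*Il6* (chr5:30013114-30019981, plus strand, 5 exons, ENSMUSG00000025746.11) encodes interleukin 6, which drives the acute phase response. It had 1.27 CPM in control at ZT2, 1.43 CPM in control at ZT14, 0.580 CPM with MCS at ZT2 and 1.12 CPM with MCS at ZT14, from 11, 13, 5 and 11 reads. All 4 intervals overlapped. With so few reads, the log2 ratio of MCS to control was -1.01 (-3.01 to 0.51) at ZT2 and -0.32 (-1.65 to 0.93) at ZT14, and a change of *Il6* was not detectable at this depth.

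*Osm* (chr11:4236420-4241026, plus strand, 3 exons, ENSMUSG00000058755.3) encodes oncostatin M, an IL-6 family cytokine of myeloid cells that acts on stromal cells. It had 6.47 CPM in control at ZT2, 11.6 CPM in control at ZT14, 7.19 CPM with MCS at ZT2 and 6.75 CPM with MCS at ZT14, from 56, 106, 62 and 66 reads. The control library at ZT14 was again the only one whose interval, 9.53 to 14.1 CPM, overlapped no other, and the remaining libraries lay within 4.89 to 9.22 CPM, their limits included. The log2 ratio of MCS to control was 0.15 (-0.39 to 0.70) at ZT2 and -0.78 (-1.25 to -0.33) at ZT14. ZT2 against ZT14 gave -0.84 (-1.34 to -0.37) in control and 0.09 (-0.43 to 0.61) with MCS.

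*Lif* (chr11:4257557-4272514, plus strand, 4 exons, ENSMUSG00000034394.14), which lies close to *Osm*, encodes leukemia inhibitory factor. It had 0.346, 0.439, 0.232 and 0.102 CPM in control at ZT2, control at ZT14, MCS at ZT2 and MCS at ZT14, from 3, 4, 2 and 1 reads. At ZT2 both libraries were at or under 3 reads and no ratio is given. At ZT14 the log2 ratio was -1.42 with an interval of -7.73 to 1.23, which leaves its direction undetermined.

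*Tgfb1* (chr7:25687002-25705077, plus strand, 7 exons, ENSMUSG00000002603.15) encodes TGF-beta 1, which restrains inflammation and promotes repair. It had 213 CPM in control at ZT2, 228 CPM in control at ZT14, 224 CPM with MCS at ZT2 and 191 CPM with MCS at ZT14, from 1846, 2073, 1928 and 1864 reads. The libraries differed little, with the highest 1.19-fold above the lowest, and MCS at ZT14 was the lowest. The depth of this gene made small ratios measurable: MCS against control gave 0.07 (-0.02 to 0.16) at ZT2 and -0.26 (-0.35 to -0.17) at ZT14. ZT2 against ZT14 gave -0.10 (-0.19 to -0.0039) in control and 0.23 (0.14 to 0.32) with MCS.

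*Csf1* (chr3:107741048-107760469, minus strand, 9 exons, ENSMUSG00000014599.10) encodes macrophage colony-stimulating factor. It had 12.7 CPM in control at ZT2, 10.4 CPM in control at ZT14, 16.4 CPM with MCS at ZT2 and 15.3 CPM with MCS at ZT14, from 110, 95, 141 and 150 reads. Both MCS libraries were above both control libraries, and the intervals of neighbouring libraries overlapped. The log2 ratio of MCS to control was 0.36 (-0.0053 to 0.74) at ZT2 and 0.55 (0.18 to 0.94) at ZT14. *Csf1* was the only member whose counting interval lay above no change at ZT14.

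Counted over the genes, MCS against control at ZT2 left 7 of the 9 members with a mean of both libraries above 1 CPM, all but *Il6* and *Lif*, and 1 of these, *Il1b*, passed a log2 ratio of 1, with the higher value in MCS. Of all 12612 genes with such a mean, 2.21% passed in either direction and 1.44% upward. *Il6* lay at -1.01 with a mean below 1 CPM and was not counted. The counting interval excluded no change for *Il1a* and *Il1b*, both higher with MCS, against 11.5% of all genes higher and 11% lower. The median log2 ratio over all 9 members, *Il6* and *Lif* included, was 0.15. Over the 12612 genes with a mean above 1 CPM it was 0.00.

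**Figure D2:**
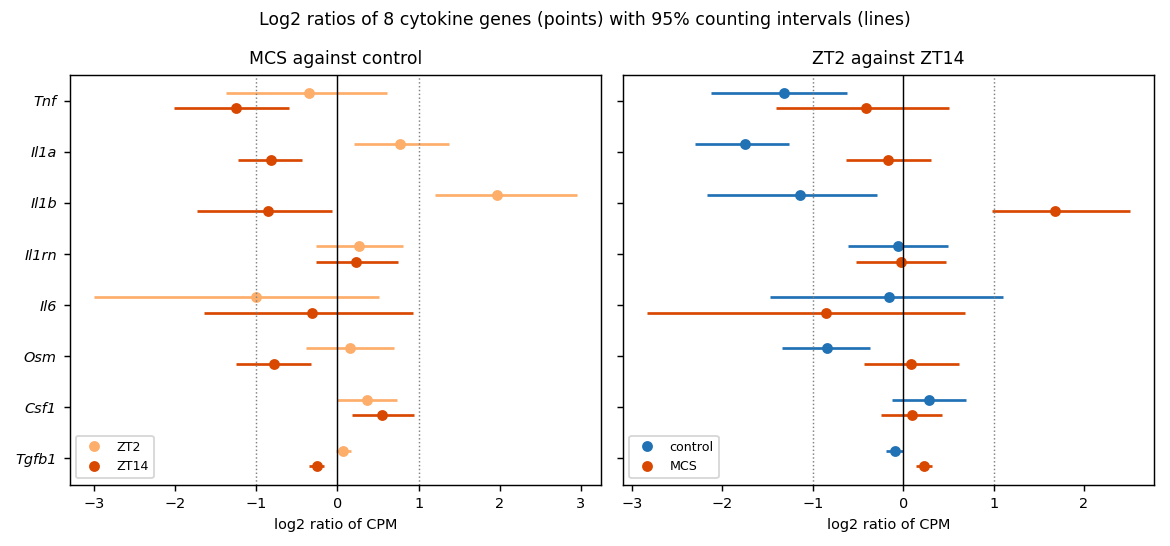
Log2 ratios of CPM (horizontal axes) for 8 cytokine genes, with MCS against control on the left at ZT2 and ZT14, and ZT2 against ZT14 on the right in control and MCS mice. Points are ratios, lines are 95% counting intervals and dotted lines mark -1 and 1. *Il1b* lies at 1.97 for MCS against control at ZT2 and at -0.85 at ZT14.

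At ZT14, 8 members had a mean above 1 CPM and *Tnf* alone passed a log2 ratio of 1 in size, with the lower value in MCS, against 3.4% of 12368 genes in either direction and 1.57% downward. Counting intervals excluded no change for 6 members. *Tnf*, *Il1a*, *Il1b*, *Osm* and *Tgfb1* were lower with MCS and *Csf1* was higher, whereas 18.9% of all genes were lower and 18.7% higher by the same criterion. The median over all 9 members, with *Lif* and its few reads included, was -0.78. Over the 12368 genes with a mean above 1 CPM it was 0.00, so the 2 medians rest on unlike sets. Thus 5 of the 8 members were lower by their counting intervals, a larger share than that of all genes, while the number past a ratio of 1 rests on 1 gene.

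Between times in control mice, *Tnf*, *Il1a* and *Il1b* passed a log2 ratio of 1, all lower at ZT2, of 8 members with a mean above 1 CPM. The background was 3.61% of 12465 genes in either direction and 1.19% lower at ZT2. Intervals excluded no change for 5 members, the same 3 with *Osm* and *Tgfb1*, all lower at ZT2, against 15.9% of all genes lower and 13.6% higher. In MCS mice 1 of 7 members passed, *Il1b*, with the higher value at ZT2, against 5.83% of 12534 genes in either direction and 3.96% higher at ZT2. Intervals excluded no change for *Il1b* and *Tgfb1*, both higher at ZT2, against 21.9% of all genes higher and 22.2% lower. The medians over all 9 members, those with a mean below 1 CPM included, were -0.27 in control and 0.09 in MCS mice. Over all genes with a mean above 1 CPM they were 0.00 and 0.01.

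Set side by side, 5 members, *Tnf*, *Il1a*, *Il1b*, *Osm* and *Tgfb1*, were lower both in control at ZT2 and in MCS at ZT14 than in control at ZT14, with intervals that excluded no change. Of 12511 genes with a mean of the 4 libraries above 1 CPM, 8.06% met the same criterion. Both ratios have the control library at ZT14 in common, so the count describes that library as much as the others. Of the 8 members with such a mean, 5 were highest in control at ZT14, against 23.8% of the 12511 genes.

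The ratio of MCS to control itself was compared between the times. The counting interval of the difference excluded 0 for 4 of the 8 members with a mean above 1 CPM, all lower at ZT14, against 35.4% of all 12511 genes in either direction and 18% lower at ZT14. ZT14 minus ZT2, the difference of the log2 ratios was -2.82 (95% interval -4.15 to -1.69) for *Il1b*, -1.59 (-2.32 to -0.90) for *Il1a*, -0.93 (-1.66 to -0.22) for *Osm* and -0.33 (-0.46 to -0.20) for *Tgfb1*. For *Tnf* it was -0.90 with an interval of -2.15 to 0.33, and for *Csf1* 0.19 (-0.35 to 0.73), so the counts do not separate the ratios of these genes at the 2 times. The proinflammatory IL-1 genes thus had the 2 largest differences among members whose interval excluded 0. These 2 were also the members with an absolute difference above 1, against 7.88% of the 12511 genes.

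A count test over all 4 libraries was run on 12404 genes with at least 40 reads. Time and MCS entered as additive terms, which left 1 residual degree of freedom. Such a fit takes the effect of MCS to be equal at ZT2 and ZT14, although the ratios of *Il1b* and *Il1a* differed between the times. No member was called for MCS by edgeR's quasi-likelihood test, with 23 genes or 0.185% of all called at an adjusted threshold of 0.05. Of the 8 members tested, 2 were under 0.05 without adjustment, against 2.41% of all genes. In edgeR *Tnf* had an unadjusted p of 0.0299 with a log2 fold change of -0.90 and *Csf1* one of 0.0492 with 0.46, and neither was under 0.05 once adjusted. For time no member was called either, with 271 genes or 2.18% called. The edgeR adjusted p was 0.106 for *Il1a* (unadjusted 0.00324) and 0.333 for *Tnf* (unadjusted 0.0233), both lower at ZT2, and 10.2% of all genes were under 0.05 without adjustment. Without the filter on reads edgeR called *Il1a* for time (adjusted p = 0.0155), among 380 of 15298 genes or 2.48%. DESeq2 called no member for either term, and no member was under 0.05 without adjustment.

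Neutrophil marker genes were, like *Il1b*, highest in MCS at ZT2. The neutrophil list had 8 of its 9 genes in the table, with sums of 162, 211, 290 and 175 CPM in control at ZT2, control at ZT14, MCS at ZT2 and MCS at ZT14. Of these, 5 passed a log2 ratio of 1 upward for MCS against control at ZT2, against 1.44% of all genes. The median over the 8 was 1.98. At ZT14, 1 passed upward and 1 downward, against 3.4% of all genes in either direction. The former was *Retnlg*, with 5.93 CPM in MCS against 2.20 CPM in control, and the latter *S100a9*. *S100a9*, a calcium-binding protein abundant in neutrophils, had 6.70, 9.23, 33.5 and 1.23 CPM in the same order, a ratio of MCS to control at ZT2 of 2.31 (1.91 to 2.76). *Mpo*, the myeloperoxidase of neutrophil granules, had 15.2 CPM with MCS at ZT2 against 2.42 CPM in control at ZT2, and in MCS at ZT14 *Mpo*, *Elane* and *Camp* were all at 0. *Elane* was also at 0 in control at ZT2, and *Ly6g*, the gene used to gate neutrophils out, was not analysed here. Most of each sum was *Csf3r*, the G-CSF receptor gene, with 143, 193, 205 and 163 CPM. The order of the 4 libraries by the neutrophil sum was the order by *Il1b*, and it was also the order by *Csf3r* alone. *S100a8*, *S100a9*, *Mpo* and *Ltf* did not follow it: each was lowest in MCS at ZT14, and *Il1b* was lowest in control at ZT2. The part of these cells in the level of *Il1b* was not tested.

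**Figure D3:**
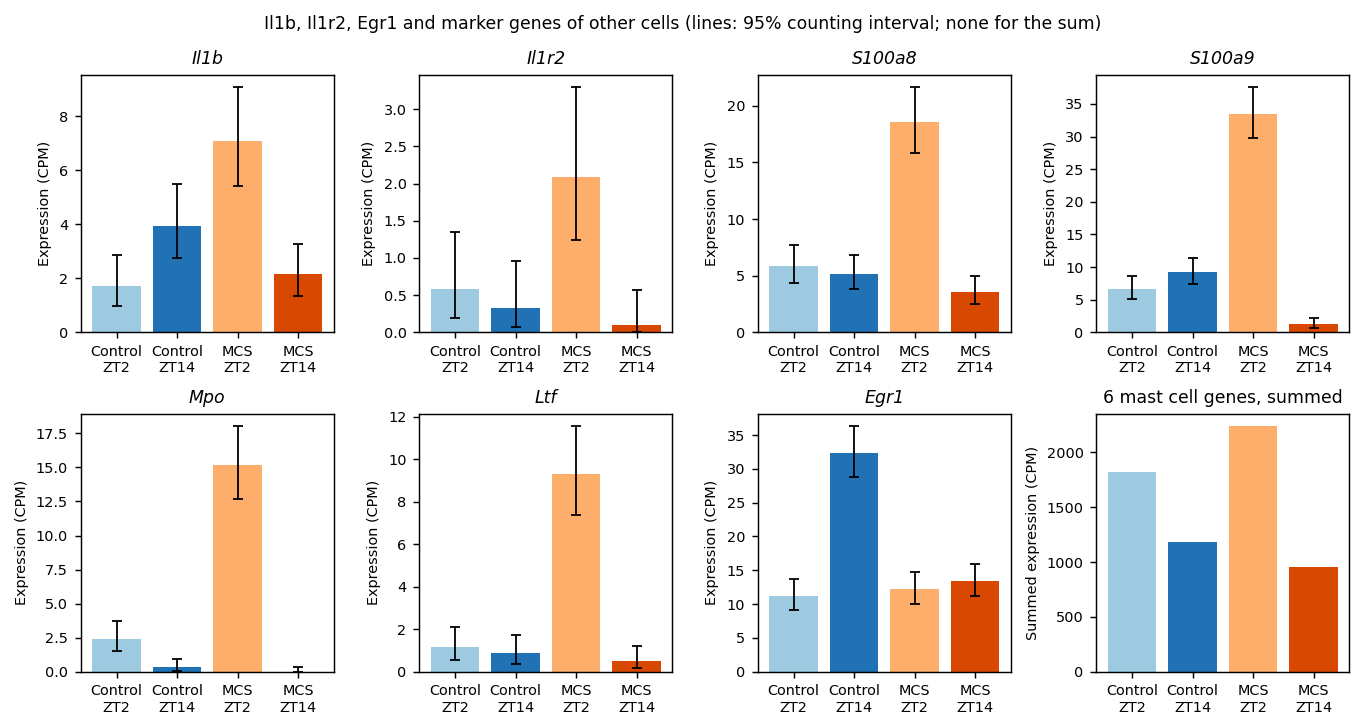
Expression in CPM (vertical axes from 0) of *Il1b*, the decoy receptor gene *Il1r2*, the neutrophil genes *S100a8*, *S100a9*, *Mpo* and *Ltf*, the immediate early gene *Egr1* and the sum of 6 mast cell genes in the 4 libraries, with 95% counting intervals for single genes. MCS at ZT2 is highest for *Il1b*, *Il1r2* and the neutrophil genes, and control at ZT14 is highest for *Egr1*.

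Other cells in the libraries moved as well. The 6 mast cell genes summed to 1818, 1183, 2240 and 952 CPM in the same order. All 6 were higher at ZT2 than at ZT14 in MCS mice by more than 1 on the log2 scale, against 3.96% of all genes. The 5 of 6 B cell genes in the table summed to 1044, 1279, 1004 and 901 CPM, highest in control at ZT14, as were *Tnf*, *Il1a* and *Osm*. All 5 had intervals below no change for MCS at ZT14, against 18.9% of all genes. For large peritoneal macrophages the sums ranged from 64887 to 70833 CPM, most of each being *Fn1* with 56553 to 61551 CPM. *Cxcl13* of that list had 193, 437, 222 and 106 CPM. For MCS against control at ZT14, 5 of the 8 genes of that list were higher by their intervals, against 18.7% of all genes. Another 2 were lower, *Cxcl13* among them, against 18.9% of all genes. The sums of the remaining lists ranged from 3753 to 4734 CPM for small peritoneal macrophages, from 21.8 to 41.2 for T cells, from 18.5 to 47.2 for natural killer cells and from 34.2 to 63.1 for dendritic cells. They ranged from 48.1 to 54.9 CPM for 2 of 5 eosinophil genes and from 3.73 to 19.95 for fibroblasts and mesothelial cells. Red blood cell genes summed to 3.23 CPM in control at ZT2 and 1.32 CPM in control at ZT14. Their sums were higher in both MCS libraries, with 36.4 CPM at ZT2 and 110 CPM at ZT14. *Siglecf*, an eosinophil gene, had 1.27, 0.659, 5.80 and 14.1 CPM, a ratio of MCS to control of 2.11 (1.23 to 3.28) at ZT2 and 4.23 (3.26 to 5.89) at ZT14, while *Il5ra*, the other one, had 51.05, 48.9, 49.1 and 33.9 CPM. The sums for T cells, dendritic cells, mast cells, natural killer cells, eosinophils, fibroblasts and small peritoneal macrophages were, like *Il1b*, highest in MCS at ZT2. Their part in the cytokine values was not tested.

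Immediate early genes, which are transcribed within minutes of a stimulus, were also high in control at ZT14. Their 12 genes summed to 529, 799, 613 and 699 CPM. Intervals excluded no change for 10 of the 12 between times in control, all lower at ZT2, against 15.9% of all genes lower. Between MCS and control 7 were lower and 1 higher with MCS at ZT14, against 18.9% and 18.7% of all genes, and at ZT2 6 were higher and 0 lower, against 11.5% and 11%. *Egr1*, a zinc finger transcription factor, had 11.2, 32.4, 12.2 and 13.4 CPM in control at ZT2, control at ZT14, MCS at ZT2 and MCS at ZT14, a ratio at ZT14, MCS to control, of -1.27 (-1.58 to -0.97). *Egr3* and *Egr2* gave -2.18 (-2.95 to -1.56) and -1.14 (-1.72 to -0.61). At ZT2, *Fosb*, an AP-1 subunit, was higher with MCS, 4.52 against 1.96 CPM (ratio 1.16, 0.35 to 2.12). With 1 library per condition, differences between mice or between preparations cannot be told apart from those of time or treatment, for these genes as for the cytokines.

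Several receptors for these cytokines were abundant. Of the 15 receptor genes, 13 had a mean above 1 CPM over the 4 libraries, as had 12511 of all 15298 genes. *Csf1r*, the CSF1 receptor, had 1028 to 1233 CPM and 229 CPM per kilobase on average, the TNF receptor genes *Tnfrsf1a* and *Tnfrsf1b* had 52.9 and 49.2, *Tgfbr2* 48.7, the LIF receptor gene *Lifr* 40.5, and *Il6st*, which encodes gp130, 25.9 CPM per kilobase. By contrast *Il1r1*, the signaling IL-1 receptor, had 0.239 CPM per kilobase and *Osmr*, the oncostatin M receptor, 0.0415, with no reads in control at ZT14. The receptor subunits of LIF were therefore present at far higher levels per kilobase than *Lif* itself, and both IL-1 mRNAs exceeded that of *Il1r1* per kilobase in every library. *Il10ra* and *Il10rb*, the receptor genes of IL-10, had 127 to 191 and 79.9 to 129 CPM.

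**Figure D4:**
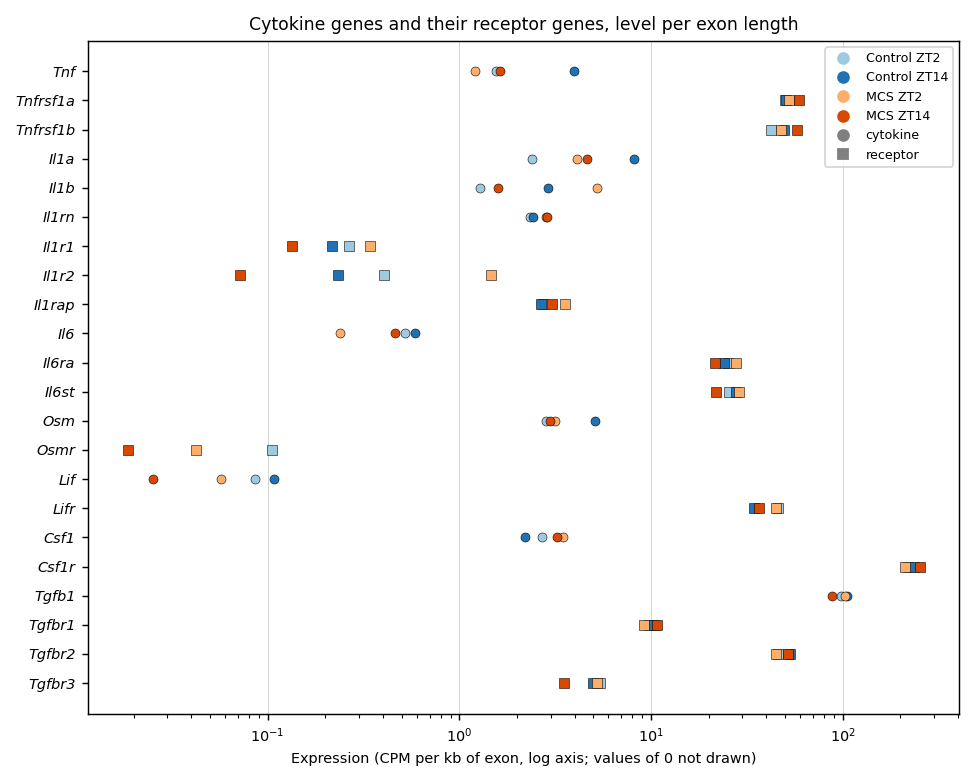
Levels of the cytokine genes (circles) and of their receptor genes (squares) in CPM per kilobase of exon on a log axis, 1 point per library, colored by condition, with values of 0 not drawn. *Csf1r* and *Tgfb1* lie near or above 100, and *Osmr* and *Lif* near or below 0.1.

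The decoy receptor gene *Il1r2*, whose product binds IL-1 without signaling, was highest in MCS at ZT2, as was *Il1b*, and the other libraries did not follow the same order. It had 0.577, 0.330, 2.09 and 0.102 CPM in control at ZT2, control at ZT14, MCS at ZT2 and MCS at ZT14, from 5, 3, 18 and 1 reads, so 3 libraries lay below 1 CPM. It was the only receptor gene past a log2 ratio of 1 for MCS against control at either time. It passed at ZT2, where 2.21% of all genes did so in either direction. At ZT2 against ZT14 in MCS mice, *Il1r1* (1.25, 0.08 to 2.76) and *Il1r2* passed, against 5.83% of all genes in either direction. *Csf1r* differed from control by -0.05 (-0.09 to -0.01) at ZT2 and 0.09 (0.05 to 0.13) at ZT14 with MCS, a much smaller range than that of *Csf1*.

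The targets of the cytokines were looked up by pathway. Of 16 NF-kB feedback and target genes, none passed a log2 ratio of 1 in any comparison. Between 2.21% and 5.83% of all genes did so in either direction, depending on the comparison, so the absence of calls is near that share. For MCS at ZT14, 8 were lower and 2 higher by their intervals, among them *Nfkb1* at -0.29 (-0.38 to -0.19) and *Nfkbia*, the inhibitor of NF-kB, at 0.48 (0.38 to 0.59). For MCS at ZT2, 4 were lower and 0 higher, against 11% and 11.5% of all genes. None of 10 STAT3 feedback and target genes passed a log2 ratio of 1 in any comparison either, again near the share of all genes. At ZT14 with MCS 7 were higher and 1 lower by their intervals, with *Stat3* at 0.09 (0.00 to 0.19) and *Sbno2* at 0.24 (0.14 to 0.34). The background for the interval counts at ZT14 is the 18.7% higher and 18.9% lower given above. Of 11 TGF-beta target genes, 1 passed at ZT14, against 3.4% of all genes in either direction. It was *Id1*, a transcriptional repressor, with 12.9 CPM in MCS against 6.26 CPM in control (1.03, 0.58 to 1.52). *Tgfbi* and *Ski* were lower, at -0.23 (-0.29 to -0.16) and -0.35 (-0.44 to -0.27). At ZT2 against ZT14, *Id1* gave -0.66 (-1.33 to -0.036) in control and -2.42 (-3.23 to -1.79) in MCS mice, and *Smad7*, which inhibits TGF-beta signaling, gave 0.79 (0.32 to 1.296) and 1.37 (0.85 to 1.95).

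Of 14 genes for processing and release in the table, *Thbs1* stood out. It encodes thrombospondin 1, which can release TGF-beta from its latent form, and had 1376 CPM in control at ZT2, 73.8 CPM in control at ZT14, 938 CPM with MCS at ZT2 and 200 CPM with MCS at ZT14. The log2 ratio of MCS to control was -0.55 (-0.59 to -0.51) at ZT2 and 1.44 (1.31 to 1.57) at ZT14. *Ltbp1*, which binds latent TGF-beta to matrix, had 1250 to 1331 CPM. *Lrrc32*, which presents it on cell surfaces, gave -0.94 (-2.18 to 0.10) in control and -1.23 (-2.51 to -0.22) in MCS mice at ZT2 against ZT14.

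The 3′ UTRs of several members hold the pentamer ATTTA, the core of AU-rich elements, to which proteins of the ZFP36 family bind. *Tnf* has 8 in 764 bases, more than 99.7% of genes with a 3′ UTR within 20% of that length, and the longer element TTATTTATT 5 times, an element present in 4.04% of those genes. *Il6* has 6 pentamers in 427 bases, *Osm* 6 in 1017, *Il1b* 4 in 459 and *Il1a* 3 in 1101, more than 99.7%, 96.4%, 97.3% and 69.8% of genes of similar length. *Il1rn* has none in 1864 bases, where the median of similar genes is 3, and *Tgfb1* has 1 in 135 bases. *Csf1* has 4 in 2111 bases and *Lif* 7 in 3180, against medians of 3 and 5. The number of pentamers did not sort the members by their pattern over the libraries: *Tnf*, *Il1a* and *Osm*, highest in control at ZT14, hold 8, 3 and 6, *Csf1*, lowest there, holds 4, and *Il1b*, highest in MCS at ZT2, also holds 4. The 30 bases with the most pentamers are shown for *Osm* and for the members with the widest spread between libraries among those above 1 CPM on average, 5′ to 3′ on the strand of the gene with ATTTA in capitals, at chr17:35199679-35199708 for *Tnf*, chr2:129300109-129300138 for *Il1a*, chr2:129364808-129364837 for *Il1b* and chr11:4240939-4240968 for *Osm* (mm10, minus strand but for *Osm*).
Tnf: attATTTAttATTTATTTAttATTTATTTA
Il1a: attttatctatgtATTTAtaaatatATTTA
Il1b: caaccacttacctATTTATTTAtgtATTTA
Osm: aatccgttttatATTTAtaaggcctATTTA

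**Figure D5:**
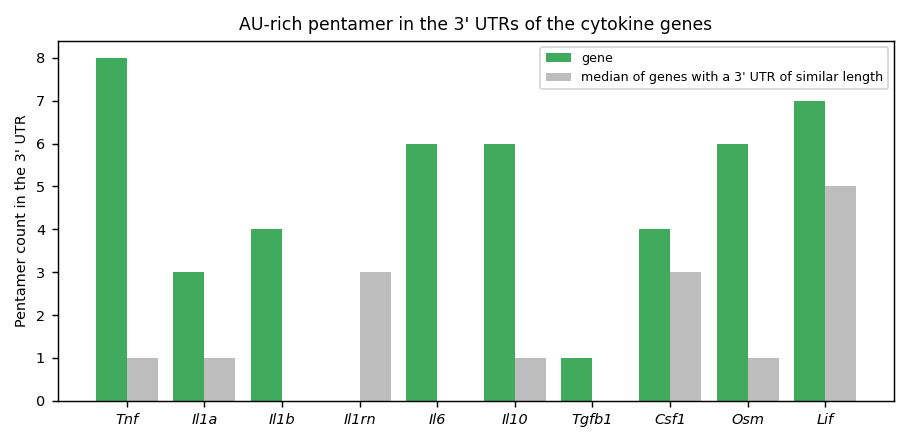
Number of ATTTA pentamers in the 3′ UTR of each cytokine gene (green bars) and the median for genes of the table whose 3′ UTR is within 20% of its length (gray bars; no bar means 0). *Tnf* has 8 against a median of 1 and *Il1rn* has 0 against 3. *Il10* is drawn from the annotation alone.

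Of the 10 genes for regulators of mRNA decay, which include *Zfp36* and its relatives, none passed a log2 ratio of 1 in any comparison. Between 2.21% and 5.83% of all genes did so in either direction, depending on the comparison, so the absence of calls is near that share. At ZT14 with MCS 5 were lower and 1 higher by their intervals, against 18.9% and 18.7% of all genes. *Zfp36l1* was at 313 CPM in control at ZT14 and between 221 and 233 CPM in the other libraries, with a ratio at ZT14, MCS to control, of -0.44 (-0.52 to -0.36). *Zfp36l2*, the most abundant of the list, had 438 to 510.5 CPM.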

How the data were processed

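RNA-seq of 4 libraries was analysed, with groups taken from the labels. The libraries were made from total RNA with an rRNA depletion and directional kit. The authors trimmed reads with Trimmomatic 0.38, counted them with RSEM 1.3.0 and Bowtie2 and deposited CPM normalized by edgeR. The submitters' processing notes name mm10, and 0 columns were of no sample. All 61192 deposited values came out as whole reads within 0.01 read, that is 100%, so counts were recovered. RSEM estimates need not be whole, and any rounding by the authors is included.

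A pseudocount of 0.1 CPM was added before taking log2 ratios, which understates changes of low genes. A gene counted as past a ratio of 1 when its log2 ratio exceeded 1 in size and the mean of both libraries exceeded 0 on the log2 CPM scale. Intervals at 95% were computed with scipy 1.17.1 from the recovered reads, conditional on their sum for ratios. The interval of a difference between ratios is that of a conditional odds ratio. A count test used edgeR 4.0.16 (quasi-likelihood) and, as an alternative, DESeq2 1.42.0. Code was tested on simulated data.

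The members and lists were chosen with earlier results of these data known. The text names all members, and of each list the genes of highest mean CPM and those with the largest ratios past 1, and gives counts for the whole list. The values of 1 list gene that the rule names are not reported here. *Rn45s*, the ribosomal RNA precursor, took between 4.47% and 6.52% of CPM. Gene positions, exon lengths and 3′ UTRs came from GENCODE M21, matched by symbol for all 10 members. Promoters came from RefSeq and matched 8 members. Python 3.11.15 (pandas 2.3.3, numpy 2.4.6, matplotlib 3.10.9) and R 4.3.3 were used. The alternatives were other pseudocounts, minimum expressions, thresholds and scalings.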

Additional observations from a re-analysis of the deposited data

Results flagged for a closer look

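For 4 members the ratio of MCS to control differed between ZT14 and ZT2, with a counting interval of the difference that excluded 0. The difference of the log2 ratios, ZT14 minus ZT2, was -2.82 (95% interval -4.15 to -1.69) for *Il1b*, -1.59 (-2.32 to -0.90) for *Il1a*, -0.93 (-1.66 to -0.22) for *Osm* and -0.33 (-0.46 to -0.20) for *Tgfb1*. By the same criterion 35.4% of all genes with a mean above 1 CPM differed in either direction. The intervals cover counting error only, and the difference between libraries of the same condition is unknown.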

How the results depend on the processing

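All 180 ratios of single members recomputed under other pseudocounts, scalings or without *Rn45s* stayed within their counting intervals. The sign changed for 1, *Il1rn* between times in MCS mice, from -0.02 to 0.02 without *Rn45s*, and for 0 of those whose interval excluded no change. Of 36 recomputed counts of members, 24 stayed within 1.5 times. Of the scalings, the one by TMM factors of edgeR gave back the deposited scaling, so the ratios and counts recomputed with it could not differ. For MCS against control, the number past the threshold was 2 at ZT2 (*Il1b* and *Il6*) and 2 at ZT14 (*Tnf* and *Lif*) without a minimum expression. With a threshold of 0.5 it was 2 at ZT2 (*Il1a* and *Il1b*) and 5 at ZT14 (*Tnf*, *Il1a*, *Il1b* and *Osm* lower, *Csf1* higher). With a log2 mean above 3 it was 0 at both times and, for ZT2 against ZT14, 1 in control (*Il1a*) and 0 in MCS. With a threshold of 2 it was 0 in all 4 comparisons. With a pseudocount of 1 CPM, *Il1b* no longer passed between times in control, which left 2. Below 2 CPM in every library lay 2 members, *Il6* and *Lif*. For MCS, 5 genes were called by DESeq2 and 43 by edgeR without the filter on reads, and for time 81 by DESeq2. Without that filter *Il1a* was called for time (edgeR adjusted p = 0.0155), among 380 genes or 2.48%.

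No paired analysis was possible because each condition has 1 library. Leaving out a library was not possible for the same reason. At this depth, ratios of *Lif* and *Il6* were not determined in direction in any comparison.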

Other observations

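Among 43 further cytokine genes looked up, 24 had values, with between 19 and 21 above 1 CPM on average in a comparison. *Tgfb2*, which encodes TGF-beta 2, was the most abundant by mean CPM, with 587, 772, 559 and 635 CPM in control at ZT2, control at ZT14, MCS at ZT2 and MCS at ZT14. Its log2 ratio of MCS to control was -0.28 (95% interval -0.33 to -0.23) at ZT14. *Il16*, a chemoattractant for CD4+ cells, had 118 to 144 CPM. *Hgf*, which encodes hepatocyte growth factor, differed most, with 28.5, 6.48, 35.4 and 19.2 CPM, a ratio of MCS to control of 1.55 (1.14 to 2.02) at ZT14 and of ZT2 to ZT14 in control of 2.12 (1.72 to 2.57). It was lowest in control at ZT14, where *Tnf*, *Il1a* and *Osm* were highest.

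*Pdgfb*, a growth factor for mural cells and fibroblasts, had 4.50, 10.9, 6.73 and 6.14 CPM in the same order, highest in control at ZT14, with a ratio of MCS to control at ZT14 of -0.82 (-1.31 to -0.35). *Vegfa*, the endothelial growth factor gene, had 1.27, 2.97, 3.13 and 1.64 CPM and was higher with MCS at ZT2 (1.24, 0.24 to 2.46). *Lta*, which encodes lymphotoxin alpha, lay lower with MCS at ZT14 (-1.38, -3.16 to -0.09). For MCS against control 2 of these genes passed a log2 ratio of 1 upward at ZT2, against 1.44% of all genes. At ZT14, 1 passed upward and 1 downward, against 3.4% in either direction. Between times 1 was higher and 4 were lower at ZT2 in control, against 3.61% of all genes in either direction and 1.19% lower. In MCS mice 0 passed, against 5.83% in either direction.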
